A study of Homo sapiens with 6 samples.

Results

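The 9 genes described here, NQO1, HMOX1, GCLC, GCLM, SLC7A11, TXNRD1, SRXN1, FTH1 and FTL, are widely used readouts of the transcription factor NRF2. They were chosen by gene symbol, are 9 of the 23228 gene names in the table, and were compared between SaOS-2 cells with p21 switched on and off. SaOS-2 is a human osteosarcoma cell line that the study describes as null for RB. All 6 libraries came from SaOS-2 cells carrying a Tet-inducible vector for p21, the CDK inhibitor encoded by CDKN1A. The 3 p21 OFF libraries were made from untreated cells and the 3 p21 ON libraries from cells given 1 µg/ml doxycycline for 24 h, and polyA RNA was sequenced in every case. No cells given the drug without the vector were analysed here, so p21 and doxycycline cannot be told apart as sources of a difference. Whether the line is a single clone is not given in the sources used here. The labels do not say whether replicates came from separate cultures, so the p-values below measure the spread between these libraries, which may be technical.

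NRF2, encoded by NFE2L2, is a transcription factor that is made continually and destroyed continually. In resting cells the adaptor KEAP1 hands NRF2 to a ubiquitin ligase built on CUL3 and RBX1, and oxidants or electrophiles that modify KEAP1 let NRF2 escape, pair with a small MAF protein and bind antioxidant response elements beside its target genes. p21 protein has been reported to stabilise NRF2 by competing with KEAP1 for it, so NRF2 target mRNAs are a natural place to look in cells that overproduce p21. The control operates mainly on NRF2 protein, which mRNA counts do not measure.

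The element bound by NRF2 has the core TGACNNNGC, which reads GCNNNGTCA on the other strand. It was searched on both strands in RefSeq promoter sequences of assembly GRCh38.p14, from 250 bases before to 50 bases after a gene's start. Promoters were matched for 6 of the 9 genes, 7 promoters in all, and HMOX1, SLC7A11 and FTH1 were not analysed for sequence. The core was present in 3 of the 7, the promoter of GCLM and both promoters of TXNRD1, and in 13.3% of all 35116 promoters in the set. The windows are printed because they show the kind of sequence NRF2 binds, with up to 30 bases on each side, stopping at the start site. Capitals mark the core, and each line runs 5′ to 3′ on the gene's strand:
GCLM promoter (GRCh38.p14, chr1:93909431-93909494, minus strand): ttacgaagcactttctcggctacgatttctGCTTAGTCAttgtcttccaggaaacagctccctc
TXNRD1 first promoter (GRCh38.p14, chr12:104215650-104215718, plus strand): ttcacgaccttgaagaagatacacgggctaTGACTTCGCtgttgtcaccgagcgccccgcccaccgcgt
TXNRD1 second promoter (GRCh38.p14, chr12:104286900-104286968, plus strand): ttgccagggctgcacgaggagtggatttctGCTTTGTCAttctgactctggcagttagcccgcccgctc
In the GCLM promoter the core lay 34 to 26 bases before the start, and in the TXNRD1 promoters 99 to 91 and 102 to 94 bases before it. A further core in the window of the first TXNRD1 promoter did not lie wholly before the start and is not printed. None of the 3 printed cores held TGACTCA, the AP-1 site that can overlap an antioxidant response element. No core was matched in these windows of NQO1, GCLC, SRXN1 and FTL, which says only that these letters are not in the windows searched. A match is a description of sequence and not a measured binding site.

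Values are normalized counts, reads on a gene divided by the library's DESeq2 size factor. The libraries held 12795490 to 21975045 reads on genes, and each of the 9 genes had at least 388 reads in every library. A chi-square per gene between replicates, about 1 if they differed by sampling alone, was 8.49 and 9.26 for the pairs with p21 OFF replicate 1 and 2.71 to 3.98 for all other pairs. Replicate 1 of p21 OFF therefore stood apart, and results that rest on it are given without it too. CDKN1A rose from 1266 ± 84.5 to 43691 ± 3138 normalized counts (SD, n = 3 each), 34.5-fold, in the direction of the labels. RB1 mRNA was still counted, at 555 ± 66.8 in p21 OFF and 654 ± 39.7 in p21 ON. Of 9 osteoblast markers, RUNX2, SP7, ALPL, COL1A1, SPARC and IBSP were expressed, BGLAP was at 0 in every library, and COL1A2 and SPP1 had at most 4 reads in a library. IBSP was the 1 marker called lower (129 ± 8.66 in p21 OFF, 99.0 ± 3.20 in p21 ON), a call lost when a trend on transcript length was taken out (-0.28, limma adjusted p = 0.0845). Leukocyte, endothelial and hepatocyte markers (PTPRC, CD14, PECAM1, ALB) had at most 16 reads in any library. The epithelial marker EPCAM was expressed, at 330 ± 38.9 normalized counts in p21 OFF and 313 ± 18.6 in p21 ON. It was called neither higher nor lower.

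Most NRF2 target genes stayed near their p21 OFF level when p21 was on. FTL fell to 0.835 of its p21 OFF level and SLC7A11 rose to 1.17 times it, the latter at the edge of the threshold, and neither was called once a trend on transcript length was taken out. The other 7 of 9 were called neither higher nor lower, at 0.912 to 0.997 of the p21 OFF level. Calls came from limma, fitted to the 13255 genes whose mean normalized count reached 10 on a scale of log2(normalized count + 1), at a Benjamini-Hochberg adjusted p under 0.05. That threshold called 10.5% of all tested genes higher and 12.7% lower, against 1 of 9 targets in each direction, so the share of called targets was near the background both ways. The median log2 fold change of the 9 was -0.09, beside 0.01 over all tested genes, and 8 of the 9 estimates were below 0 (6 of 9 with scaling by library size or with the length trend described below taken out). With scaling by library size alone, which called 2034 genes higher and 1194 lower in place of 1393 and 1681, the targets' median was -0.05. In bulk RNA a small change in every cell and a larger one in some cells cannot be told apart.

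**Figure D1:**
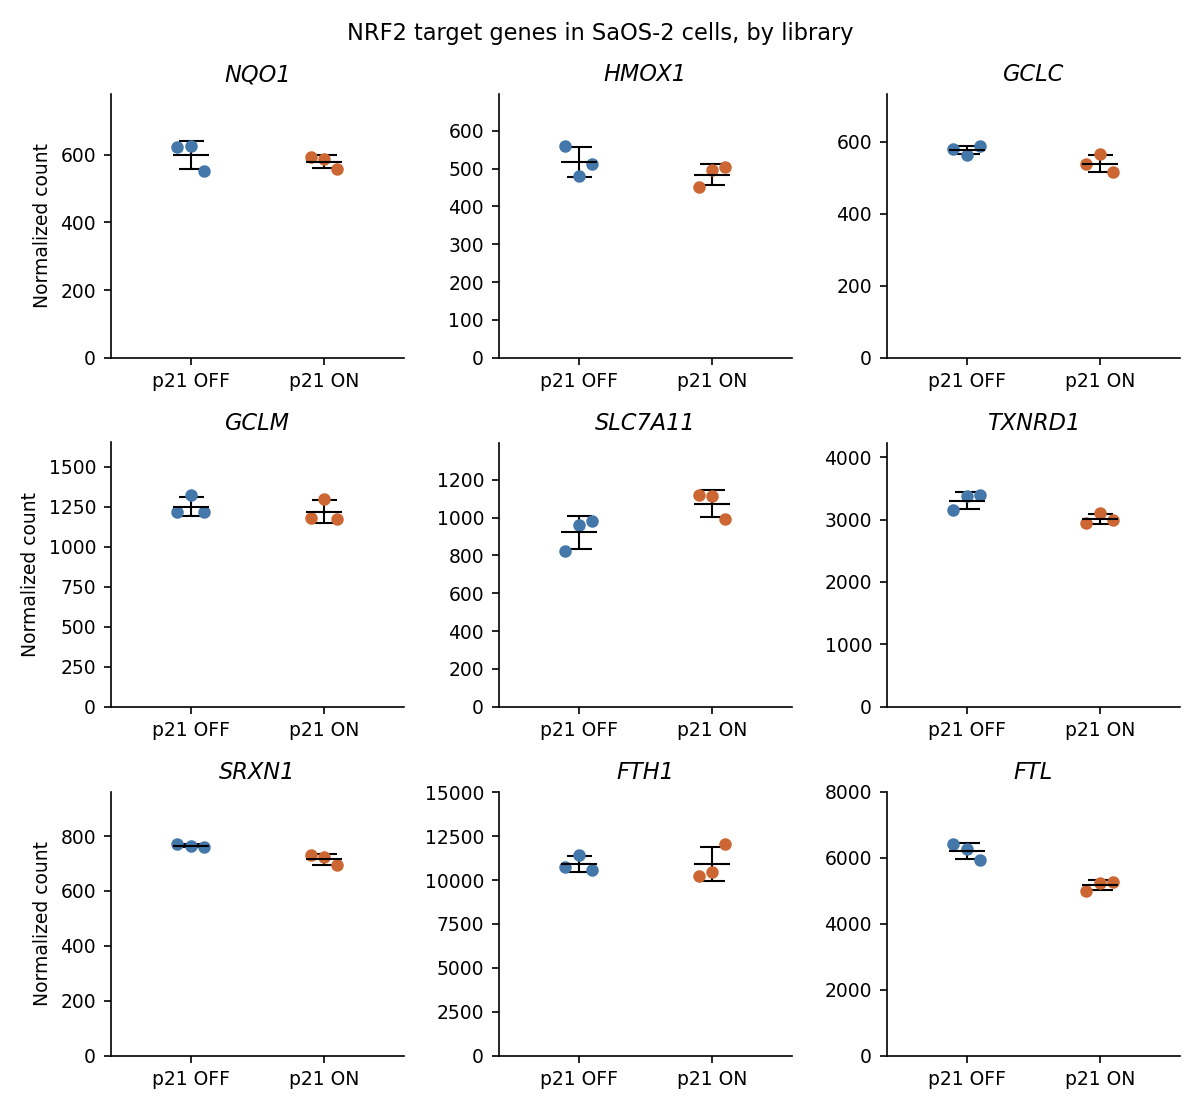
Normalized counts of the 9 NRF2 target genes in each library (points; blue p21 OFF, orange p21 ON, 3 libraries each), with the mean (wide bar) and SD (whiskers) of each group; every vertical axis starts at 0. FTL lay at 5918 to 6400 in p21 OFF and at 5001 to 5272 in p21 ON, and SLC7A11, TXNRD1 and SRXN1 were the other genes whose groups did not overlap.

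The ferritin genes store iron. FTL (ferritin light chain, chromosome 19, 49468566 to 49470136, plus strand, 4 exons; this and all gene positions are GRCh37) had 6400, 6262 and 5918 normalized counts in p21 OFF replicates 1 to 3. In p21 ON replicates 1 to 3 it had 5001, 5233 and 5272. Every p21 ON value was under every p21 OFF value, as for 21.3% of tested genes. FTL fell by 0.26 on the log2 scale (SE 0.06, 95% interval -0.38 to -0.14, limma adjusted p = 0.00386), and without p21 OFF replicate 1 the log2 fold change was -0.24 (adjusted p = 0.000872). It was the largest absolute change among the 9 targets and the only one called in all 10 alternative settings of test, scaling, pseudocount, filter and block and with each library left out. With a trend on transcript length taken out of each library it was -0.08 (limma adjusted p = 0.226) and not called.

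FTH1 encodes the ferritin heavy chain, which oxidises iron for storage (chromosome 11, 61727190 to 61735106, minus strand, 4 exons). It had 10764, 11425 and 10570 normalized counts in p21 OFF and 10213, 10470 and 12033 in p21 ON. The groups overlapped, with p21 ON replicate 3 the highest of all 6 libraries. The log2 fold change was -0.0049 (95% interval -0.15 to 0.14, limma adjusted p = 0.967). A level below 0.904 or above 1.10 times that of p21 OFF lay outside the interval of this fit. With a trend on transcript length taken out of each library, FTH1 was at 0.13 (95% interval 0.01 to 0.25, limma adjusted p = 0.110) and not called. The ratio of FTH1 to FTL counts, not corrected for length, was 1.68, 1.82 and 1.79 in p21 OFF and 2.04, 2.001 and 2.28 in p21 ON. Its groups did not overlap, and no test was run on it. FTH1 shares sequence with processed pseudogenes: 926 of the 1153 windows of 51 bases in its canonical transcript (80.3%) also occur in transcripts of other genes, 15 of them named as FTH1 pseudogenes, so its count is uncertain where the counting could split reads. For FTL the share was 18.0%, with FTLP2 and FTLP3.

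SLC7A11 encodes the cystine-importing subunit of the xCT exchanger, which brings in the cystine for glutathione (chromosome 4, 139085251 to 139163503, minus strand, 12 exons). Its p21 OFF values were 824, 961 and 984 normalized counts. Its p21 ON values were 1118, 1114 and 991. The groups were separated by the gap between 984 and 991 alone, and 19.1% of tested genes had p21 ON wholly above p21 OFF. SLC7A11 rose by 0.22 on the log2 scale (SE 0.08, 95% interval 0.06 to 0.38, limma adjusted p = 0.0486). With a trend on transcript length taken out it was 0.07 (limma adjusted p = 0.410) and not called. On the recovered reads the call was lost with edgeR (TMM, adjusted p = 0.0506) and DESeq2 (adjusted p = 0.0582). It was also lost without p21 OFF replicate 1 (0.14, adjusted p = 0.125), p21 OFF replicate 2 (0.25, adjusted p = 0.0552), p21 ON replicate 1 (0.19, adjusted p = 0.192) or p21 ON replicate 2 (0.19, adjusted p = 0.146). The ratio to SLC3A2, the heavy chain of the same exchanger, a gene picked after its values were seen, was 0.596 ± 0.0667 in p21 OFF and 0.720 ± 0.0626 in p21 ON (SD, n = 3 each), and no test was run on it. Its groups were parted only by the gap between 0.652 and 0.660, and p21 OFF replicate 1 was the lowest library, at 0.523. The log2 fold changes of SLC7A11 and SLC3A2 were 0.22 and -0.05, and 0.07 and 0.02 with the length trend out.

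Glutathione is made by glutamate-cysteine ligase, whose catalytic subunit is GCLC (chromosome 6, 53362139 to 53481768, minus strand, 16 exons) and whose modifier subunit is GCLM (chromosome 1, 94350755 to 94375012, minus strand, 7 exons). GCLC had 581, 565 and 588 normalized counts in p21 OFF and 538, 565 and 516 in p21 ON. GCLM had 1217, 1322 and 1216 in p21 OFF and 1180, 1303 and 1177 in p21 ON. Both pairs of groups overlapped. The log2 fold change was -0.10 for GCLC (95% interval -0.25 to 0.05, limma adjusted p = 0.339) and -0.04 for GCLM (95% interval -0.18 to 0.10, limma adjusted p = 0.721). The ratio of modifier to catalytic subunit counts was 2.17 ± 0.151 in p21 OFF and 2.26 ± 0.0577 in p21 ON, with overlapping groups.

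TXNRD1 encodes the cytosolic thioredoxin reductase (chromosome 12, 104609557 to 104744085, plus strand, 17 exons), and SRXN1 the sulfiredoxin that repairs overoxidised peroxiredoxins (chromosome 20, 627259 to 633844, minus strand, 2 exons). TXNRD1 had 3147, 3371 and 3388 normalized counts in p21 OFF and 2941, 3103 and 2991 in p21 ON. The groups did not overlap, p21 ON being the lower, yet the change, -0.13 (SE 0.06, 95% interval -0.26 to -0.01), did not pass the threshold (limma adjusted p = 0.110). Without p21 OFF replicate 1, its lowest p21 OFF library, TXNRD1 was called lower (-0.17, limma adjusted p = 0.0214). SRXN1 had 770, 766 and 761 normalized counts in p21 OFF and 730, 723 and 694 in p21 ON. These groups did not overlap either, but the log2 fold change of -0.10 (95% interval -0.24 to 0.04) was not called (limma adjusted p = 0.303). Of its 51-base windows 90.6% are shared with 1 other gene of GENCODE on the same strand, so its count is uncertain. In all, 3 of the 9 targets had p21 ON wholly below p21 OFF and 1 wholly above, beside 21.3% and 19.1% of all tested genes. For each of these 4 targets the exact two-sided permutation test gave p = 0.1, the smallest that 3 against 3 libraries allow.

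NQO1 and HMOX1 are the targets most often measured as signs of NRF2 activity. NQO1, the quinone reductase (chromosome 16, 69740899 to 69760571, minus strand, 6 exons), had 623, 625 and 551 normalized counts in p21 OFF and 593, 587 and 557 in p21 ON. HMOX1, heme oxygenase 1, which breaks down heme (chromosome 22, 35776354 to 35790207, plus strand, 5 exons), had 559, 480 and 512 in p21 OFF and 452, 496 and 506 in p21 ON. For both genes the groups overlapped. The log2 fold change was -0.05 for NQO1 (95% interval -0.21 to 0.11, limma adjusted p = 0.673) and -0.09 for HMOX1 (95% interval -0.26 to 0.08, limma adjusted p = 0.440). The upper ends of these intervals were 1.08-fold for NQO1 and 1.06-fold for HMOX1, so a rise beyond these sizes lay outside the 95% interval of this fit. With the length trend taken out, the log2 intervals were -0.16 to 0.13 for NQO1 and -0.13 to 0.16 for HMOX1, reaching higher for both. An uncalled gene is not shown to be unaffected, and its interval holds only for the scaling used.

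Among themselves the targets spanned a wide range of abundance. Per kb of canonical transcript, the median over the 6 libraries was 8867 normalized counts for FTH1 and 6423 for FTL, followed by 810 for TXNRD1. HMOX1 (322), SRXN1 (295), GCLM (249), NQO1 (234), GCLC (149) and SLC7A11 (102) came after. The neighbours HMOX1 and SRXN1, and likewise GCLM and NQO1, overlapped over the libraries, and all other neighbours were apart. The order puts the ferritins first and the cystine importer last. On the opposite strand, exons of NQO1, GCLC, SLC7A11 and FTH1 overlap exons of other genes (for GCLC and SLC7A11 their antisense genes GCLC-AS1 and SLC7A11-AS1, for FTH1 BEST1), and windows of 51 bases shared with other genes made up 20.8% of the NQO1 and 9.24% of the SLC7A11 transcript, so these counts are uncertain to that extent.

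The reads of p21 ON and p21 OFF libraries differed along transcript length, and the 2 called targets lie near the ends of that scale. Over the 12667 tested genes with a length, the median log2 fold change was -0.19 under 1 kb (719 genes), -0.10 from 1 to 2 kb, -0.02 from 2 to 4 kb, and 0.08 from 4 kb up. Of genes under 1 kb 35.5% were called lower and 1.39% higher, and from 4 kb up 6.13% were lower and 16.9% higher. FTL, with a canonical transcript of 871 bases, is the only target in the shortest class, while SLC7A11, the longest at 9645 bases, and GCLM, at 4883, are in the longest. A lowess trend on length was taken out of each library as an alternative chosen after seeing the data. FTL then had a log2 fold change of -0.08 (95% interval -0.18 to 0.02, limma adjusted p = 0.226) and SLC7A11 0.07 (95% interval -0.05 to 0.20, limma adjusted p = 0.410), so neither was called. TXNRD1, in the middle of the scale, was called lower instead (-0.15, 95% interval -0.25 to -0.05, limma adjusted p = 0.0315). With the trend out, 0 targets were higher and 1 was lower, at a median of -0.06, beside 1335 higher and 1646 lower among all 12667 genes. The part that length plays in the FTL and SLC7A11 calls was not otherwise tested.

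**Figure D2:**
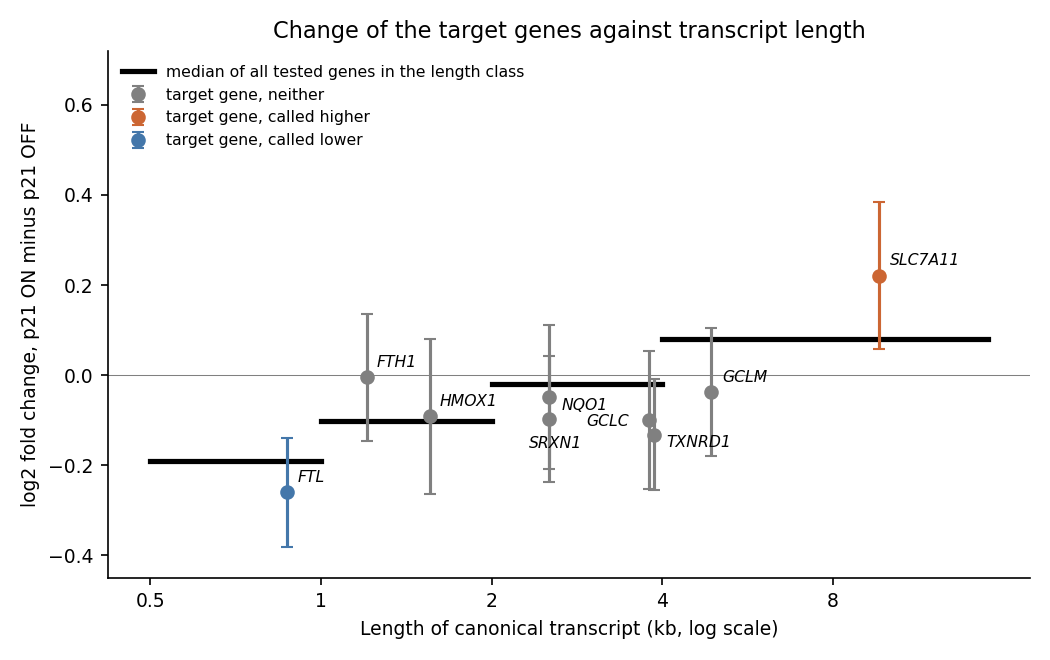
Log2 fold change (p21 ON minus p21 OFF, limma) of the 9 target genes, with 95% intervals, against the length of the canonical transcript in kb on a log axis; black bars are the median of all tested genes in each length class, and the outer bars are drawn to 0.5 and 15 kb. FTL, the shortest at 871 bases, was called lower and SLC7A11, the longest at 9645 bases, was called higher, beside class medians of -0.19 and 0.08.

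Of 11 regulators and partners of NRF2 0 were called higher and 1 lower (9.09%), beside 10.5% and 12.7% of all tested genes, with a median log2 fold change of -0.01. With the length trend out 2 of the 11 were lower, RBX1 and CUL3, beside 1646 of 12667 genes. In normalized counts both lay wholly below p21 OFF, as did 21.3% of all tested genes. NFE2L2 itself had 2573, 2284 and 2249 normalized counts in p21 OFF and 2241, 2305 and 2302 in p21 ON, with overlapping groups and a log2 fold change of -0.05 (95% interval -0.18 to 0.08, limma adjusted p = 0.598). KEAP1, its adaptor to the ligase, had 1249 ± 57.6 and 1178 ± 64.9 (SD, n = 3 each; log2 fold change -0.09, limma adjusted p = 0.375).

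RBX1, the RING subunit of the KEAP1 ligase and of all other CUL3 ligases, fell from 441 ± 76.8 normalized counts to 335 ± 13.0 (SD, n = 3 each). The log2 fold change was -0.38 (limma adjusted p = 0.0142), -0.26 without p21 OFF replicate 1 and -0.24 with the length trend out (adjusted p = 0.0432). The call was lost without p21 ON replicate 1 (adjusted p = 0.0703) or replicate 3 (adjusted p = 0.0607). CUL3, the scaffold, lay wholly lower in p21 ON (3013 ± 111 to 2697 ± 160, log2 fold change -0.16) without passing the threshold (limma adjusted p = 0.0696), and was called lower with the length trend out (-0.25, adjusted p = 0.00313). MAFF (0.27), MAFG (0.04) and MAFK (0.11), the small MAF partners, were not called, nor was BACH1 (0.06), the repressor that competes with NRF2 at HMOX1. The remaining regulators had log2 fold changes near 0: NFE2L1, a relative of NRF2, -0.03, BTRC, of the nuclear degradation route, 0.03, and SQSTM1, the autophagy receptor p62 that sequesters KEAP1, -0.01.

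**Figure D3:**
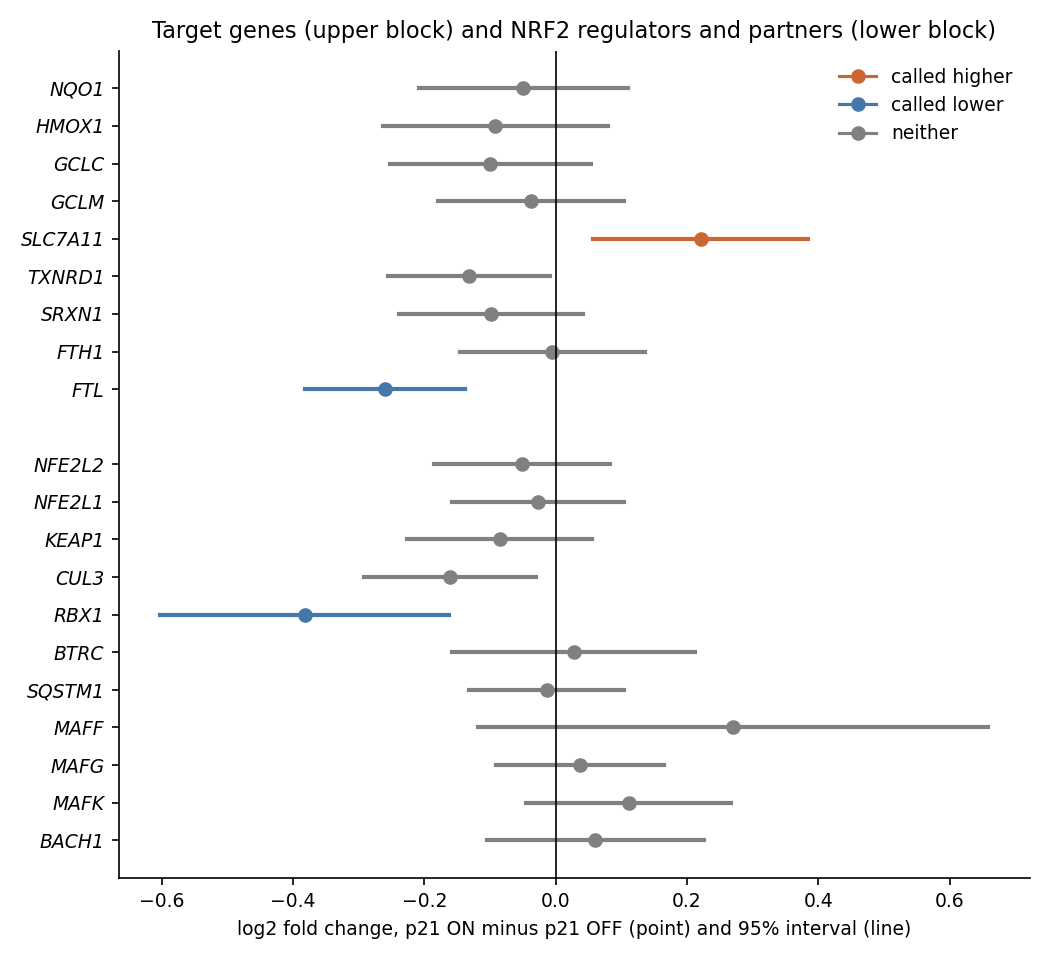
Log2 fold change, p21 ON minus p21 OFF, with its 95% interval from limma, for the 9 target genes (upper block) and the 11 NRF2 regulators and partners (lower block); orange is called higher, blue called lower and grey neither. FTL at -0.26 and RBX1 at -0.38 were called lower and SLC7A11 at 0.22 higher, and the grey intervals include 0 except those of TXNRD1 and CUL3, which end at -0.01 and -0.03.

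Genes around the targets were described from 5 further lists written from general knowledge. Of 31 other NRF2 targets 24 were tested, and 3 rose (12.5%) and 4 fell (16.7%), beside 10.5% and 12.7% of all tested genes, at a median of -0.02. ABCC3, a conjugate exporter, rose from 1232 ± 39.3 to 1738 ± 136 normalized counts (SD, n = 3 each; log2 fold change 0.49, limma adjusted p = 4.8e-05). SLC48A1, a heme transporter (0.31), and EPHX1, an epoxide hydrolase (0.19), rose too, but SLC48A1 was not called without p21 OFF replicate 2 (adjusted p = 0.0658) or p21 ON replicate 3 (adjusted p = 0.0599). EPHX1 was at 0.29 with the length trend out (adjusted p = 0.000249). With 1 library left out it was called only without p21 OFF replicate 1, and leaving out any other library gave an adjusted p between 0.0767 and 0.102 or, without p21 ON replicate 2, 0.0619.

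PRDX1, an abundant peroxiredoxin, fell from 7038 ± 454 normalized counts to 5490 ± 293 (SD, n = 3 each; -0.36, limma adjusted p = 0.000654). IDH1, which makes cytosolic NADPH (-0.32), and CBR1, a carbonyl reductase (-0.30), fell as well. TXN, thioredoxin itself and the substrate of TXNRD1, was called lower (-0.26, limma adjusted p = 0.0436) although its groups overlapped. That call was lost without p21 OFF replicate 1 (-0.12, adjusted p = 0.121) or any p21 ON library (adjusted p = 0.0568 to 0.169). It was also lost with the length trend out (-0.06, adjusted p = 0.504), while PRDX1 (-0.19, adjusted p = 0.00583) and CBR1 (-0.16, adjusted p = 0.0435) were still called at a smaller size.

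In glutathione handling, 1 of 21 tested genes rose (4.76%) and 5 fell (23.8%), at a median of -0.11. Over all tested genes 10.5% were higher and 12.7% lower. CHAC1, which degrades glutathione, rose from 94.2 ± 6.75 to 143 ± 17.1 normalized counts (SD, n = 3 each; 0.59, limma adjusted p = 0.00284). The iron-sulfur cluster glutaredoxins GLRX3 (-0.44) and GLRX5 (-0.38) fell, with the glutathione peroxidases GPX1 (-0.37) and GPX4 (-0.23). The GPX4 call was lost without p21 ON replicate 1 (adjusted p = 0.165) or p21 ON replicate 2 (adjusted p = 0.0537) and with the length trend out (-0.05, adjusted p = 0.510). With that trend out GPX1 (-0.19, adjusted p = 0.0237) and GLRX5 (-0.24, adjusted p = 0.0249) were still called at a smaller size.

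Among thioredoxin and peroxiredoxin genes 1 of 15 tested rose (6.67%) and 3 fell (20%), beside 10.5% and 12.7% of all tested genes, at a median of -0.11. TXNRD3, a thioredoxin-glutathione reductase, rose from 46.4 ± 3.65 to 70.1 ± 8.83 normalized counts (SD, n = 3 each; 0.58, limma adjusted p = 0.0158). Without p21 ON replicate 3 it was at 0.50 and not called (adjusted p = 0.0835). PRDX3, the mitochondrial peroxiredoxin (-0.29), TXNL1, a thioredoxin-like protein (-0.21), and PRDX6 (-0.17) fell. PRDX3 was not called without p21 ON replicate 1 or 3 (adjusted p = 0.0659 and 0.0781). TXNL1 and PRDX6, with adjusted p of 0.0475 and 0.0479, lost their calls without p21 OFF replicates 1 and 2 and p21 ON replicates 1 and 3 (adjusted p = 0.0678 to 0.223), and PRDX6 without p21 ON replicate 2 too (adjusted p = 0.0640). With the length trend out PRDX6 was at -0.08 (adjusted p = 0.254), PRDX3 at -0.19 (adjusted p = 0.0357) and TXNL1 at -0.30 (adjusted p = 0.00817).

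Of 4 tested genes of superoxide and peroxide metabolism 0 rose and 1 fell (25%), beside 10.5% and 12.7% of all tested genes. SOD1, the cytosolic superoxide dismutase, fell from 8338 ± 742 normalized counts to 6910 ± 384 (SD, n = 3 each), by -0.27 (limma adjusted p = 0.00915). It was not called without p21 ON replicate 1 or 3 (adjusted p = 0.0665 and 0.0577) or with the length trend out (-0.09, adjusted p = 0.167). With that trend out SOD2 was called lower (-0.30, adjusted p = 0.00425) and CAT higher (0.19, adjusted p = 0.0360), both named after their values were seen. Of 14 tested iron and heme genes 1 rose (7.14%) and 2 fell (14.3%), beside the same 10.5% and 12.7%, at a median of -0.04. TFR2, the second transferrin receptor, rose (0.46, limma adjusted p = 0.0012). PCBP1 and PCBP2, which deliver iron to ferritin, fell (-0.27 and -0.17), PCBP1 from 6086 ± 158 to 5054 ± 107 normalized counts, and with the length trend out PCBP1 was at -0.18 (adjusted p = 0.0107). PCBP2 was not called without p21 OFF replicate 2 or 3 or p21 ON replicate 1 or 3 (adjusted p = 0.0726 to 0.133).

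The 6 lists together held 102 genes, of which 89 were tested: 6 rose (6.74%), 16 fell (18.0%) and 67 were not called, at a median of -0.05. The shares in all tested genes were 10.5% higher and 12.7% lower. The split moved with scaling and length, with 7 higher and 10 lower by library size alone and 12 higher and 14 lower with the length trend out. It was 5 higher and 7 lower without p21 ON replicate 1, and 3 higher and 9 lower without p21 ON replicate 3. Over all tested genes, 1393 higher and 1681 lower became 2034 and 1194 by library size, and 1335 and 1646 of 12667 with the length trend out. They became 695 and 887 without p21 ON replicate 1, and 739 and 1077 without p21 ON replicate 3.

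**Figure D4:**
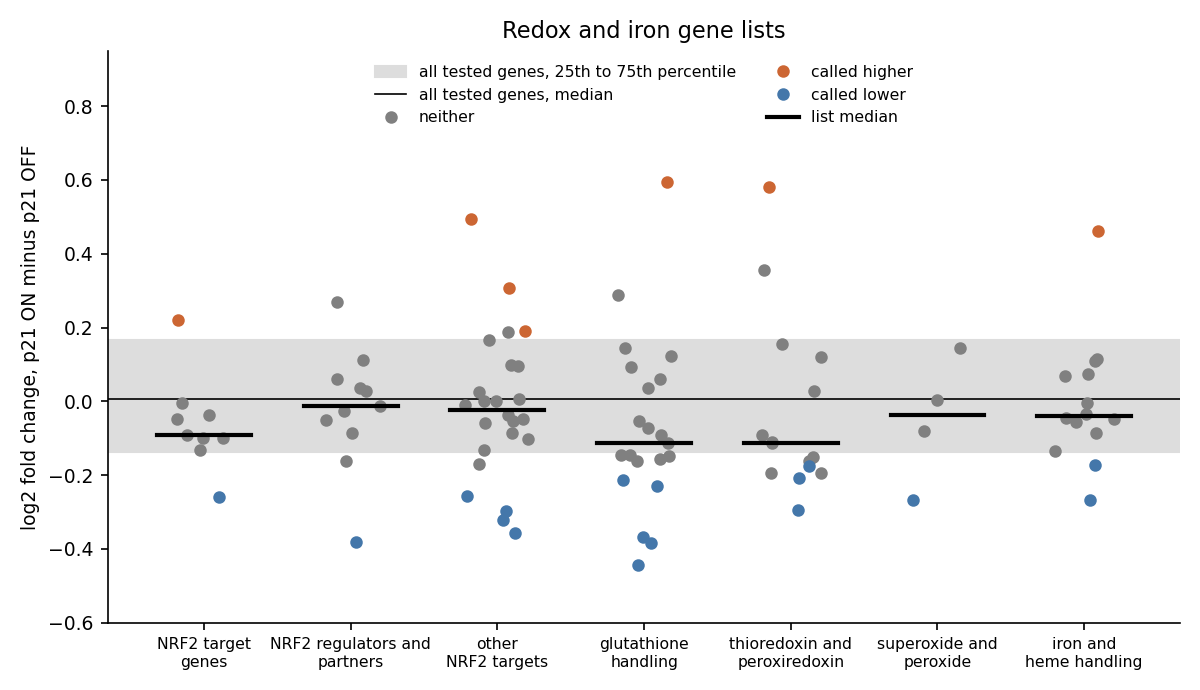
Log2 fold change, p21 ON minus p21 OFF, of each tested gene in the target set and in 6 redox and iron gene lists (points; orange called higher, blue called lower, grey neither), with each list's median (black bars), the median of all tested genes (thin line) and their middle 50% (grey band). Of the 9 targets 1 was called in each direction, and the list medians ran from -0.11 for glutathione handling and for thioredoxin and peroxiredoxin to -0.01 for the NRF2 regulators.

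SLC7A11 is also a target of ATF4, the transcription factor of the amino acid response, so ATF4 and a short list of its targets, not a full set, were read beside it. Of the 7 genes listed, ATF4 itself among them, 5 rose (71.4%), 1 fell (14.3%) and 1 was not called, beside 10.5% higher and 12.7% lower over all tested genes. The list was chosen with earlier results of these data known, so these shares are a description. ATF4 as a source of the SLC7A11 change was not tested. CBS, the first enzyme of transsulfuration, had 2690, 2557 and 2552 normalized counts in p21 OFF and 3563, 3446 and 3505 in p21 ON (0.43, limma adjusted p = 2.96e-05). CTH, the second enzyme, which yields cysteine, rose from 649 ± 57.1 to 861 ± 23.3 (SD, n = 3 each; 0.41, limma adjusted p = 0.000863). Both estimates were larger than that of SLC7A11, and the difference was not tested.

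TRIB3 (0.38) and ASNS (0.37), the asparagine synthetase, rose as well. DDIT3 (0.25, limma adjusted p = 0.0494) was called in the main fit and without p21 OFF replicate 1, and with any other library left out its adjusted p was between 0.0930 and 0.164. With all libraries kept, its call was lost with DESeq2 (adjusted p = 0.0898) and in limma with a pseudocount of 10 (adjusted p = 0.0510), no filter (adjusted p = 0.0697) or a replicate block (adjusted p = 0.0767). With the length trend out DDIT3 was at 0.42 (adjusted p = 0.000793). ATF4 mRNA itself fell from 3802 ± 331 to 2993 ± 142 normalized counts (-0.34, limma adjusted p = 0.00171, and -0.23 with the length trend out, adjusted p = 0.00305). SLC7A5, a neutral amino acid transporter, was not called (-0.10, limma adjusted p = 0.285), but was lower without p21 OFF replicate 1 (-0.16, adjusted p = 0.0253).

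The genes whose library-to-library pattern lay closest to FTL were searched among the 11389 non-target genes whose mean reached 50, by Euclidean distance between centred log2 values over the 6 libraries. SUMO3 was nearest (distance 0.0234), then STARD3NL (0.0412) and PAF1 (0.0451). SUMO3 had 8318, 8308 and 7794 normalized counts in p21 OFF and 6623, 6878 and 6942 in p21 ON, a log2 fold change of -0.26, the same size as for FTL. STARD3NL (-0.27) and PAF1 (-0.24) were lower too, and PAF1 was not called without p21 ON replicate 1 (adjusted p = 0.0527). With the length trend out SUMO3 was at -0.17 and STARD3NL at -0.18, both still called. These genes were picked for a pattern close to that of FTL, so a like direction and size of change follow from the choice. The 6 points also share the 6 libraries and their depths, so the likeness is a description.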

How the data were processed

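The authors used STAR for mapping to hg19, HTSeq for counts per gene and DESeq2 size factors for normalization. The deposited values are these normalized counts, a signal of 0 or above per gene and library. Tool versions, strand setting and handling of multi-mapped reads are not given in the sources used here. In every library 100% of values were whole multiples of 1 read (tolerance 0.1), which returned the reads for edgeR 4.0.16 and DESeq2 1.42.0 as alternatives. The main test was limma 3.58.1 in R 4.3.3 (lmFit, eBayes with trend, no covariates) on log2(normalized count + 1), restricted to 13255 genes by a minimum mean of 10, and Benjamini-Hochberg adjusted over all of them. Fold changes are on that scale. Further alternatives were scaling by library size or TMM, pseudocounts of 0.1 and 10, no filter, at least 10 reads in every library, a replicate block, leaving out each library, and a length trend taken out, chosen after seeing the data. Positions are from GENCODE 44 lifted to GRCh37, and promoter sequences from RefSeq GRCh38.p14, with no coordinates passed between builds.

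The 9 targets and all gene lists were chosen with earlier results of these data known. Named genes were the 9 targets, all regulators, up to 4 called genes of largest change per direction and list, CDKN1A, RB1, the ATF4 genes and the 3 genes nearest to the most changed target. One gene set by that rule is not reported here. On simulated counts for 3 against 3 libraries (13246 genes), limma called 85 of 100 genes changed by 0.5 on the log2 scale and 100 of 100 changed by 1. The changed genes were drawn from the better-counted ones and 13046 genes were left unchanged. In the data 1393 and 1681 of 13255 genes were called, so the adjusted threshold was stricter in the simulation and its shares do not carry over. Smaller changes were not simulated. None of the 9 targets had an estimate as large as 0.5. Intervals around fold changes come from the spread between libraries.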

Additional observations from a re-analysis of the deposited data

How the results depend on the processing

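FTL kept its call in the 10 alternatives of test, scaling, pseudocount, filter and block (log2 fold change -0.26 to -0.22) and with each library left out (-0.29 to -0.24), but not with the length trend out (-0.082); the cause was not tested. SLC7A11 fell short with edgeR TMM (0.21), edgeR with DESeq2 size factors (0.21), DESeq2 (0.22), no filter (0.22) and the length trend out (0.072), and ranged from 0.14 to 0.28 with a library left out. TXNRD1 was called with the length trend out (-0.15) and ranged from -0.17 to -0.11 with a library left out. The targets called higher numbered 0 in each setting where SLC7A11 fell short and 0 to 1 with a library left out, and the targets called lower 1 to 2. The target median was -0.048 by library size and -0.11 to -0.057 with a library left out.

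Estimates near 0 changed sign: FTH1 with DESeq2 (0.0040), by library size (0.039) and with the length trend out (0.13), GCLM by library size (0.0065), HMOX1 with the length trend out (0.013), NFE2L1 by library size (0.017), SQSTM1 by library size (0.030) and with the length trend out (0.0040), and BTRC (-0.044), MAFG (-0.011) and BACH1 (-5.06e-05) with the length trend out. With a library left out the ranges that crossed 0 were GCLM -0.085 to 0.0027, FTH1 -0.078 to 0.041, NFE2L2 -0.087 to 0.010, NFE2L1 -0.087 to 0.013, BTRC -0.052 to 0.079 and SQSTM1 -0.033 to 0.0027. None of these genes was called in any of these settings.

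Thioredoxin genes called lower numbered 1 with edgeR TMM, DESeq2, library size and no filter. Over all genes those settings called 1647, 1422 and 1194 of 13255 lower, and 1521 of 18210 with no filter. By library size 3 of 21 glutathione genes and 1 of 14 iron genes were lower. With the length trend out 2 of 11 regulators were lower, and 4 of 21 glutathione genes were higher and 3 lower. In that setting 1 of 4 superoxide genes and 2 of 14 iron genes were higher. Over all 12667 genes it called 1335 higher and 1646 lower, so the counts of these short lists are a description. With a library left out, 0 to 1 regulators were lower, 1 to 3 other targets higher, 3 to 6 glutathione genes lower, 0 to 2 thioredoxin genes higher and 0 to 4 lower, 0 to 1 superoxide genes lower and 1 to 2 iron genes lower. Over all 13255 genes the counts then ran from 695 to 1486 higher and from 887 to 1660 lower. Same-numbered libraries did not deviate together (correlation of deviations -0.06, -0.02 and -0.05), so replicate numbers were not taken as pairs. Under the replicate block SLC7A11 was 0.22 (adjusted p = 0.0568) and no longer called, leaving 0 targets higher, with 2 thioredoxin genes higher and 1 lower and 1 iron gene lower. That block called 1407 higher and 1513 lower of all 13255 genes. Each target had at least 388 reads in every library.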

Other observations

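Several redox genes were close to 0 in every library, and are named here after their values were seen. AKR1C1, AKR1C2, AKR1C3 and ALDH3A1, NRF2 targets in many epithelial cells, had 0 of 98674030 reads on genes over the 6 libraries, where a count of 0 allows up to 3 reads over all libraries, for counting error only. NOX4, CYBA and FTMT were at 0 too. PRDX2, a peroxiredoxin of most cells, had 3 reads over all libraries and MSRA, a methionine sulfoxide reductase, had 12, beside 38855 for PRDX1. An exact 0 can also come from how the counting assigned reads, which was not tested, so these genes are only said to be listed at or near 0.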
